A study of Mus musculus with 46 samples.

Results

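Ribosome footprints of Ctu1-deficient EPP2 cells were compared between 6 libraries of cells treated with torin 1 and 5 of cells treated with DMSO. EPP2 is a mouse pancreatic cancer line. The cells came from a single-cell-derived clone with doxycycline-inducible Cas9, and the libraries are those labelled Ctu1KO, in which paired guide RNAs against Ctu1 were used with doxycycline at 300 ng/ml for 4 days. Torin 1, a kinase inhibitor of mTOR, was given at 300 nM for 2 h, and DMSO is its solvent. The 11 footprint libraries were taken by their labels from the 46 libraries of the series, which also holds 12 footprint libraries of control cells (6 with DMSO, 6 with torin 1) and RNA-seq of the same groups. The labels give control libraries the same doxycycline treatment, in a protocol worded alike for all samples, and the methods name guide RNAs against non-coding regions as a control. Genes had to be listed in the tables of both treatments on 1 entry each, which left 9857 of 10464 listed symbols, and 9855 of these had the mean of at least 10 counts that was required for a test.

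mTORC1 is a growth-sensing kinase complex that raises protein synthesis when nutrients and growth factors are present, in part by phosphorylating the 4E-binding proteins that otherwise hold back the cap-binding factor eIF4E. The mRNAs best known for their dependence on mTORC1 are the TOP mRNAs, which begin with a cytosine followed by a run of pyrimidines and encode ribosomal proteins and translation factors. Ctu1 and its partner Ctu2 add sulfur to the wobble uridine (U34), whose side chain is begun by the Elongator complex, in the tRNAs that read AAA, CAA and GAA codons. The comparison asks how footprints change when mTOR is inhibited in cells that lack this enzyme, and whether the change follows codon content.

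Total footprint counts ranged from 10828447 to 34565506 per DMSO library and from 4602092 to 18880436 per torin 1 library. The mean log2 total differed by −0.73 (two-sided exact permutation test, p = 0.0866, where the smallest possible p is 0.00433), and by −0.89 without DMSO replicate 1 (exact p = 0.0476) and −0.90 without torin 1 replicate 6 (exact p = 0.0238). Counts per library are relative, so footprints of a gene are given as a share of a library and say nothing on the total protein output of the cells. In such bulk lysates, fewer cells of a kind and less RNA per cell cannot be told apart. Ctu1 itself was listed only in the DMSO tables, where its footprints stood at 1.30 to 2.27 counts per 1000000 counts (CPM) in Ctu1-deficient libraries and at 1.58 to 3.43 CPM in control libraries. These ranges overlap, and a count per gene does not show small deletions at a cut site, so the counts leave the knockout unchecked. Of 12 epithelial markers 4 were listed (Krt8, Krt18, Krt19 and Sox9, but not Epcam or Cdh1) against 10 of 10 mesenchymal markers, and their summed levels were 370 to 508 CPM and 6340 to 10353 CPM with DMSO, against 402 to 504 CPM and 5649 to 13009 CPM with torin 1. None of the acinar, immune or endothelial markers was listed.

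Labels were compared with a torin 1 score, built from the 100 genes that moved most in each direction in control replicates 1 and 2 and scaled to 0 for control DMSO and 1 for control torin 1. All 11 footprint libraries of Ctu1-deficient cells scored as labelled, from 0.18 to 0.25 with DMSO and from 0.99 to 1.16 with torin 1. Control footprint libraries scored from −0.02 to 0.09 with DMSO. With torin 1 they scored 1.01 and 0.99 in replicates 1 and 2, which define the score. Control torin 1 replicates 3 to 6 scored lower, at 0.71, 0.66, 0.67 and 0.73. The RNA-seq libraries labelled Ctu1KO DMSO replicates 4 and 5 scored 1.09 and 1.02, and those labelled Ctu1KO torin 1 replicates 5 and 6 scored 0.39 and 0.43. In control cells the RNA-seq libraries labelled torin 1 replicates 5 and 6 scored 0.09 and 0.10. For this reason the footprints of all 11 libraries were used here, but transcripts and translational efficiency rest on replicates 1 to 3, which were thus kept by a score of the torin 1 response itself. Since the footprint libraries labelled DMSO replicates 4 and 5 share their labels with these RNA-seq libraries, the counts of main lists are also given without them.

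**Figure D1:**
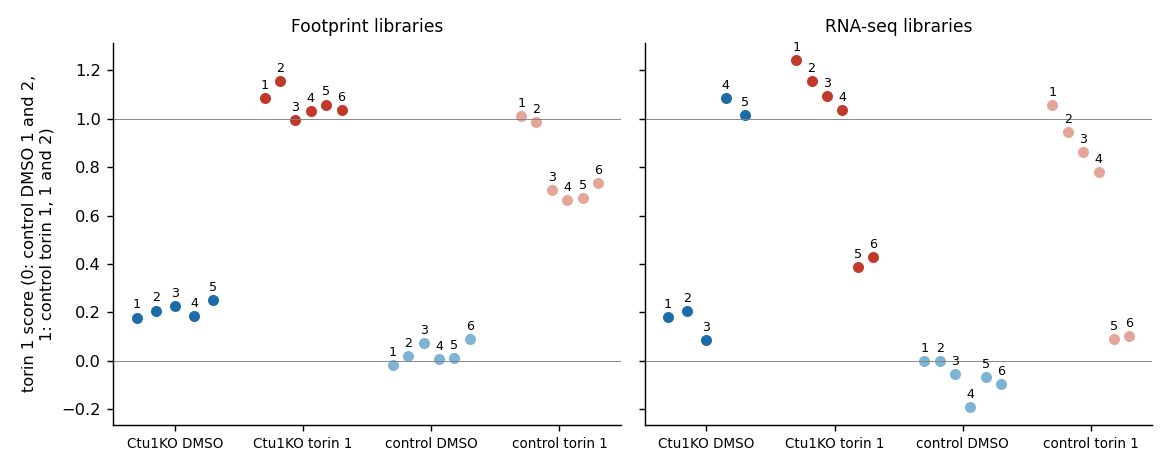
Torin 1 score (vertical axis, no unit, 0 for control DMSO and 1 for control torin 1 in replicates 1 and 2) of each library, footprints left and RNA-seq right, with 1 point per library, its replicate number above it and groups along the horizontal axis. Footprint libraries of Ctu1-deficient cells lie at 0.18 to 0.25 with DMSO and at 0.99 to 1.16 with torin 1, whereas 4 RNA-seq libraries of Ctu1-deficient cells and, at 0.09 and 0.10, 2 of control cells labelled torin 1 lie away from their groups.

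With torin 1, footprints of 788 of 9855 genes changed (edgeR quasi-likelihood test, adjusted p under 0.05). Of these, 445 fell (4.52%) and 343 rose (3.48%), and the median log2 change over all genes was 0.02. Scaling by library totals in place of TMM moved this median to 0.11 and called 317 genes lower and 580 higher, so that the share of higher calls went from 43.5% to 64.7%. Ranges of normalised CPM did not overlap between the groups for 806 genes (8.18%), and 640 of these were also called. Without the libraries labelled DMSO replicates 4 and 5, 444 genes were called (278 lower and 166 higher), of which 406 were among the 788. Without DMSO replicate 5 alone, 527 were called, 207 of them higher. Changes are given below as log2 fold changes of torin 1 against DMSO with their standard errors (SE).

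Ribosomal protein and elongation factor genes stood among the strongest decreases. The 15 genes that fell most were Pabpc1, Rps27, Rps27rt, Eef1a1, Rps18-ps5, Eef1b2, Rps18, Rps18-ps6, Eef2, Rpl27a, Tpt1, Rps19, Gm2174, Rpl9-ps1 and Rps12. Of these, 5 (Rps27rt, Rps18-ps5, Rps18-ps6, Gm2174 and Rpl9-ps1) are near-identical copies or carry symbols of predicted genes, so their reads cannot be separated safely from those of the parent genes and their values are uncertain. The 15 were taken from called genes whose ranges do not overlap between the groups, so that separation is no result for them.

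Cytosolic ribosomal proteins fell almost without exception. All 80 were tested, and 79 fell, with a median log2 change of −1.58 (2.99-fold lower), against the 4.52% of all genes that fell. By subunit, 47 of 47 large subunit genes fell (median −1.55) and 32 of 33 small subunit genes fell (median −1.61). The mean log2(CPM + 1) over the 80 genes was 9.78, 9.80, 9.65, 9.58 and 9.59 in DMSO replicates 1 to 5, and with torin 1 the lowest, median and highest libraries stood at 7.96, 8.13 and 8.21. The groups were thus separate by more than 1 log2 unit. In control cells 77 of the 80 fell, with a median of −0.96, against 4.33% of all genes. The number of ribosomal protein genes called was 79 in replicates 1 and 2 alone, in replicates 3 to 6 alone, with library totals and without any 1 library.

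Rps27, a small subunit protein, stood at 1178, 1065, 961, 880.2 and 899.5 CPM in DMSO replicates 1 to 5, and its lowest, median and highest values with torin 1 were 142, 168 and 176 CPM. Its log2 change was −2.61 ± 0.10 (adjusted p = 1.95e-09). Every torin 1 library lay below every DMSO library, as also for the genes that follow. Rps18 went from 2268, 2123, 1755, 1682 and 1752 CPM to 302, 372 and 418 CPM (lowest, median and highest), a log2 change of −2.38 ± 0.11 (adjusted p = 4.08e-09). Among large subunit proteins, Rpl27a stood at 722, 771, 796, 594 and 620.2 CPM with DMSO and at 109, 146 and 166 CPM with torin 1, with a log2 change of −2.29 ± 0.12 (adjusted p = 1.74e-08). Rps19, Rps12, Rpl13a and Rpl17 had log2 changes of −2.24, −2.18, −1.98 and −1.94. Smaller decreases were measured for Rpl29, Rps25 and Rps3. Rpl29 stood at 139, 143, 189, 156 and 168 CPM with DMSO and 39.5, 58.6 and 87.7 CPM with torin 1, a log2 change of −1.32 ± 0.19 (adjusted p = 0.000352). For Rps25 the log2 change was −1.43 ± 0.09 (adjusted p = 4.43e-08) and for Rps3 −1.41 ± 0.09 (adjusted p = 6.52e-08).

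Rps27l, a paralog of Rps27, was the 1 ribosomal protein gene that was not called, and it is described because of this result. Its footprints were 258, 243, 208, 287 and 268 CPM with DMSO and 182, 228 and 290.3 CPM (lowest, median and highest) with torin 1, so the groups overlapped. The log2 change was −0.09 ± 0.13 (adjusted p = 0.764), and it was 0.00713 with library totals and 0.00923 without the libraries labelled DMSO replicates 4 and 5.

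**Figure D2:**
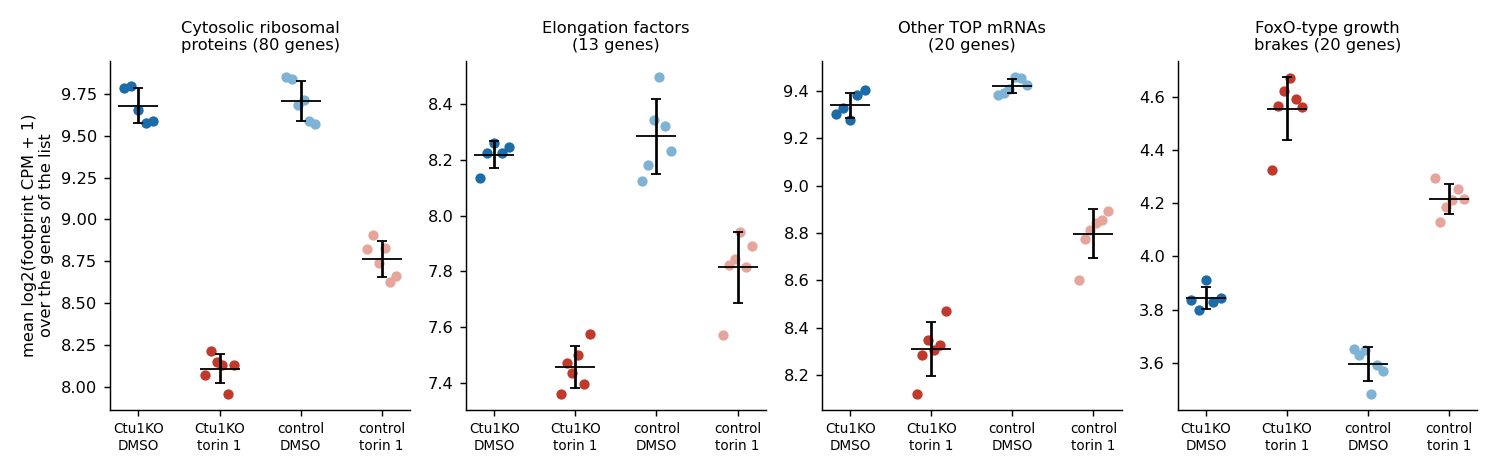
Mean log2(footprint CPM + 1) over the genes of a list (vertical axis), with 1 point per library and bars for the mean ± SD of the 4 groups of footprint libraries, for cytosolic ribosomal proteins, elongation factors, other TOP mRNAs and FoxO-type growth brakes. Ribosomal proteins lie at 9.58 to 9.80 in Ctu1-deficient DMSO libraries and at 7.96 to 8.21 with torin 1, while control torin 1 libraries lie at 8.63 to 8.90.

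Of 13 elongation factors tested, 6 fell, against 4.52% of all genes, and none rose, with a median of −0.36 against 0.02 over all genes. Eef1a1 delivers aminoacyl-tRNA to the ribosome to be decoded. It stood at 10632, 10652, 10376, 11298 and 10634 CPM with DMSO and at 1751, 1917 and 2125 CPM with torin 1 (lowest, median and highest), a 5.58-fold decrease and a log2 change of −2.48 ± 0.07 (adjusted p = 6.26e-11). Eef2, the translocation factor, went from 1285, 1499, 1577, 1383 and 1450.4 CPM to 233, 291 and 336 CPM, with a log2 change of −2.33 ± 0.11 (adjusted p = 3.85e-09). The groups lay far apart for both genes. Eef1b2 and Eef1g, subunits of the exchange factor that recharges eEF1A, had log2 changes of −2.38 ± 0.09 (adjusted p = 1.56e-09) and −1.43 ± 0.13 (adjusted p = 2.56e-06).

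Other TOP mRNAs, a list that shares several eIF3 subunits with the list of that complex, followed, with 19 of 20 tested genes lower, a median of −0.84, and 15 of 20 lower in control cells (median −0.41). Over all genes 4.52% were lower in Ctu1-deficient and 4.33% in control cells. Pabpc1, which binds the poly(A) tail and lies at chr15:36595661-36609668 in GRCm38, had the largest decrease of all 9855 genes. Its levels were 360.2, 444, 316, 352 and 373 CPM with DMSO and 46.4, 57.6 and 70.9 CPM with torin 1, with no overlap (a condition for the 15 genes above). The log2 change of Pabpc1 was −2.70 ± 0.13 (adjusted p = 4.58e-09), or 6.49-fold lower. Tpt1, a growth-associated protein of TOP type, went from 1327, 1351, 1043, 1483 and 1383 CPM to 248, 259.6 and 317 CPM, with a log2 change of −2.28 ± 0.11 (adjusted p = 4.08e-09). Rack1, a scaffold protein of the small ribosomal subunit, changed by −1.43 (adjusted p = 1.43e-07) and the nucleolar chaperone Npm1 by −1.01 (adjusted p = 2.03e-05). Vimentin (Vim), an intermediate filament protein that is also a mesenchymal marker, stood at 4545, 4969, 3822, 3453 and 3772 CPM with DMSO and 1804, 2077 and 2549.8 CPM with torin 1, with a log2 change of −0.93 ± 0.11 (adjusted p = 9.03e-05) and no overlap. The number of genes called in this list was 15 without the libraries labelled DMSO replicates 4 and 5, 10 in replicates 1 and 2 alone and 18 in replicates 3 to 6 alone.

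Sequences around annotated start sites are shown for genes of these groups, because a pyrimidine run at the first transcribed base is what defines a TOP mRNA. Runs away from the annotated start, or beginning with T, are not shown by this search to be such runs. In RefSeq promoter sequences of GRCm38.p6, 30 bases of the gene's own strand are given 5′ to 3′, with the longest unbroken run of C and T within 50 bases of the annotated start in capitals where it had at least 8 letters. Only the gene's own strand was searched, and no other motif was sought.
Eef1a1, chr9:78481710-78481739, minus strand: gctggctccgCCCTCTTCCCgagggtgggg
Eef2, chr10:81176634-81176663, plus strand: gacgtcagcggTCTCTTCCgccgcagccgc
Rps27, chr3:90213631-90213660, minus strand: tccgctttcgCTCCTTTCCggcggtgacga
Rps18, chr17:33955647-33955676, minus strand: tcacttccgCTCTCTCTTCCacaggaggcc
Rpl27a, chr7:109519186-109519215, plus strand: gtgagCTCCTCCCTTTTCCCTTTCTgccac
Rps19, chr7:24884623-24884652, plus strand: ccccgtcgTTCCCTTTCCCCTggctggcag
Rps12, chr10:23787181-23787210, minus strand: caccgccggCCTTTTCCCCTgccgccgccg
Rps25, chr9:44407684-44407713, plus strand: ccaccgggCTTCCTTTTTTTCCgacatctt
Eif3f, chr7:108934404-108934433, plus strand: ttctaggCTCTCTCTCTTTCTCggcaagat
The first base of the run lay 2 bases upstream of the annotated start in Rps27 and Rps18, 4 in Rpl27a and Eif3f and 5 in Eef1a1. It lay farther off in the others, at 22 bases upstream in Rps25, 45 upstream in Rps19, 8 downstream in Rps12 and 14 downstream in Eef2, and the runs of Rps19 and Eef2 begin with T. Eef1b2, Tpt1 and Rps3 had an entry without such a run in this window, and Pabpc1 and Rpl29 had no entry. A run of this kind was in 11741 of all 32851 entries (35.7%), so its presence alone sets no gene apart. Because 62 of the 80 ribosomal protein genes matched an entry, which is under 80%, shares of genes with a run were not compared between lists.

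Initiation factors were called in part. Of 13 eIF3 subunits, which form the scaffold of the initiation complex, 9 fell (median −0.55), against 4.52% of all genes that fell, and the count was 4 without the libraries labelled DMSO replicates 4 and 5, 5 with library totals and 2 in replicates 1 and 2 alone. Eif3f stood at 177, 166, 174, 166 and 171 CPM with DMSO and at 42.9, 47.9 and 56.8 CPM with torin 1, without overlap, and changed by −1.82 ± 0.10 (adjusted p = 1.26e-08). Eif3h changed by −1.27 (adjusted p = 5.59e-07), Eif3k by −0.92 (adjusted p = 0.000166) and Eif3i by −0.73 (adjusted p = 0.0106). Among 15 genes of the cap-binding complex and its 4E-binding proteins 3 fell (median −0.12, against the same 4.52%), and 2 without the libraries labelled DMSO replicates 4 and 5. These were Eif4b, a helper of the eIF4A helicase (−1.07), Eif4ebp2, a 4E-binding protein (−0.91), and the helicase Eif4a2 (−0.56). Eif4ebp1, the best known substrate of mTORC1 in this family, had a log2 change of −0.40 (adjusted p = 0.179).

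In other lists linked to growth, medians were negative and few genes passed the test, to be read against the 4.52% of all genes that fell. Without the libraries labelled DMSO replicates 4 and 5, the counts that follow became 6 for biogenesis factors, 5 for chaperones and 2 for synthetases. Of 44 nucleolar ribosome biogenesis factors, 11 fell (median −0.26), among them Rrs1 (−1.15) and Polr1c, a subunit of RNA polymerases I and III (−0.79), and the count went as low as 6 when a single library was left out, with DMSO replicates 2 and 5 and torin 1 replicates 2 and 5 each lowering it by more than 1.5 times. Of 24 cytosolic chaperones, 7 fell (median −0.25). Hspa8, the constitutive Hsp70, stood at 6014, 6149.8, 6125, 6633 and 6418 CPM with DMSO and 2399.8, 2661 and 2850.2 CPM with torin 1, without overlap, and changed by −1.23 ± 0.07 (adjusted p = 2.84e-08). Hsp90ab1, the constitutive Hsp90, changed by −0.95, and the chaperonin subunits Cct4 and Cct2 by −0.76 and −0.72. Among 21 aminoacyl-tRNA synthetases and partners 5 fell (median −0.21), with Qars at −1.01, Kars at −0.65 and Aimp1 at −0.52, and the count was as low as 3 without DMSO replicate 1, 2, 4 or 5 or torin 1 replicate 3, 4 or 5.

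Of 78 mitochondrial ribosomal proteins tested, 6 fell and none rose, against 4.52% of all genes that fell, with a median of −0.22, a lowest value of −0.69 and a highest value of 0.10. Mrpl30 and Mrpl52 changed by −0.69 and −0.62. The count was 2 with library totals and as low as 2 without single libraries, where DMSO replicates 1, 2, 3 and 5 and torin 1 replicates 4 and 5 each lowered it by more than 1.5 times. Of 73 nuclear-encoded respiratory chain subunits 9 fell (median −0.16, against the same 4.52%), led by Atp5g2, a subunit of the ATP synthase rotor, at −1.23 (adjusted p = 1.67e-05). Ndufb5 and Ndufb10 of complex I changed by −0.61 and −0.61, and Cox4i1 of cytochrome c oxidase by −0.54. Without the libraries labelled DMSO replicates 4 and 5, the counts were 3 for mitochondrial ribosomal proteins and 4 for respiratory subunits. The 13 mitochondrially encoded genes all had positive estimates (median 0.58), but none was called, and their mean log2(CPM + 1) had a median of 9.70 over the DMSO libraries and 9.99 over the torin 1 libraries, with ranges that overlapped.

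Some genes fell in lists of metabolism, proteasome, DNA replication and matrix genes, where over all genes 4.52% fell. The counts among cholesterol, proteasome, DNA replication and matrix genes lie close to that share or below it and say nothing about these lists. Fasn, the fatty acid synthase, was the 1 called gene of 15 in its list and changed by −0.85 (adjusted p = 7.07e-05), with 3 genes called without torin 1 replicate 1. Among 21 glycolysis genes 2 fell, Gpi1 (−0.62) and Ldha (−0.42), with 1 left without DMSO replicate 3 or 5 or torin 1 replicate 2 or 5, and among 21 genes of purine and pyrimidine synthesis 4 fell, including Impdh2 (−0.66) and Mthfd1l (−0.52). Without the libraries labelled DMSO replicates 4 and 5, 2 purine and pyrimidine genes were called and Impdh2 was not (adjusted p = 0.0736). Of 27 cholesterol synthesis genes 2 fell, among them Mvd (−0.70), and the count ranged from 0 to 5 without single libraries, falling below 2 without each library but DMSO replicate 2 and torin 1 replicate 1. Single calls that were lost without 4 or more single libraries each were those of Psmd4 (−0.39) among 31 proteasome subunits, Rrm2 (−0.53) among 34 DNA replication genes and Lama5 (−0.87) among 22 matrix genes, and these 3, with Ldha and Mvd, were named after their values were seen where the rule did not already name them.

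Atf4, the transcription factor of the integrated stress response, stood at 224, 176, 180.1, 218 and 183 CPM with DMSO and 107, 121 and 144 CPM with torin 1, without overlap, and changed by −0.67 ± 0.12 (adjusted p = 0.00197). Of 27 ATF4 target genes 5 fell and none rose (median −0.21), against 4.52% and 3.48% of all genes, including the pseudokinase Trib3 (−1.26), the one-carbon enzyme Mthfd2 (−0.70) and Psat1 of serine synthesis (−0.50), which was not called without the libraries labelled DMSO replicates 4 and 5 (adjusted p = 0.0662). Of 19 mRNAs controlled by upstream open reading frames, 5 fell and 1 rose, and 3 fell without DMSO replicate 3 or 4 or torin 1 replicate 4 or 6, or without DMSO replicates 4 and 5 together. The gene that rose was Ibtk (0.76, adjusted p = 0.00134), and Odc1, the rate-limiting enzyme of polyamine synthesis, was the lowest (−1.14, adjusted p = 2.62e-05). Among 22 genes of the unfolded protein response Herpud1 fell (−1.03) and the chaperone Dnajb9 rose (1.09), a share in each direction close to that over all genes.

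Footprints rose for part of a list named FoxO-type growth brakes, which also holds Irs2 of insulin signalling and Rictor of mTORC2. Of 20 FoxO-type growth brakes, which FoxO transcription factors are known to induce when insulin signalling falls, 10 rose and none fell, with a median of 0.72 (1.65-fold higher), against 3.48% of all genes that rose. Ccng2, an atypical cyclin that restrains the cell cycle (chr5:93267257-93276231 in GRCm38), had the largest increase of all 9855 genes. It stood at 2.71, 2.73, 1.97, 3.86 and 4.74 CPM with DMSO and at 11.8, 23.2 and 32.1 CPM with torin 1, a log2 change of 2.81 ± 0.28 (adjusted p = 1.15e-05). Klhl24, a ubiquitin ligase adaptor, and Irs2, an adaptor of the insulin receptor, changed by 1.97 ± 0.22 (adjusted p = 3.64e-05) and 1.59 ± 0.24 (adjusted p = 0.000741). Btg1, an antiproliferative factor, changed by 1.18 (adjusted p = 0.000236), and Foxo3 itself by 0.79 (adjusted p = 0.00117). The number called was 8 without the libraries labelled DMSO replicates 4 and 5, 1 in replicates 1 and 2 alone and 10 in replicates 3 to 6 alone.

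The 15 genes that rose most were Ccng2, Crebrf, Cebpd, Tcim, Hbp1, Klhl24, Fam214a, Fam110c, Inhba, Pim1, Ralgds, Pdgfra, Rin2, Irs2 and Klf4. Crebrf, a regulator of the stress factor Creb3, stood at 3.77, 2.25, 5.76, 4.22 and 8.50 CPM with DMSO and 19.3, 33.6 and 37.9 CPM with torin 1, a log2 change of 2.64 ± 0.30 (adjusted p = 4.37e-05). For the transcription factor Cebpd the levels were 6.67, 2.49, 4.20, 3.30 and 3.50 CPM and 11.05, 17.9 and 24.5 CPM, with a log2 change of 2.13 ± 0.29 (adjusted p = 0.000275). Hbp1, a transcriptional repressor, went from 40.7, 55.5, 57.7, 59.7 and 65.6 CPM to 115, 241 and 317 CPM, with a log2 change of 2.07 ± 0.23 (adjusted p = 2.65e-05). Ranges without overlap were a condition for these 15 genes and are no result for them. Tcim, Fam110c, Inhba (a subunit of activin), the kinase Pim1, and Klf4, a transcription factor, changed by 2.11, 1.85, 1.82, 1.76 and 1.58. The Ral exchange factor Ralgds and the Ras- and Rab-binding protein Rin2 changed by 1.62 and 1.60. Apart from Hbp1, mean DMSO levels of these 15 genes lay between 3.20 and 21.98 CPM, and the SE of their log2 changes was 0.18 to 0.34.

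Signalling and recycling genes rose in small numbers, to be read against the 3.48% of all genes that rose. Of 30 genes of the mTOR complexes and their regulators 3 rose and none fell, and these were Fnip1 (1.04) and Flcn (0.69), which act together on the Rag GTPases, and Rictor (0.50), the defining subunit of mTORC2, which also stands in the list of growth brakes and whose call was lost without any 1 of DMSO replicates 1, 2, 3 and 5 or torin 1 replicates 3 to 6. Of 20 genes of insulin and growth factor signalling Irs2 and Akt2 (0.55) rose, and Akt2 was not called without the libraries labelled DMSO replicates 4 and 5 (adjusted p = 0.0662). Of 26 MAPK output genes 3 rose, the MAPK phosphatases Dusp10 (1.22, adjusted p = 0.0266) and Dusp4 (1.14, adjusted p = 0.000941) and the feedback inhibitor Spred1 (0.66, adjusted p = 0.00111). Among 28 autophagy genes 7 rose and 1 fell (median 0.35), with 10 higher under library totals, 5 without the libraries labelled DMSO replicates 4 and 5 and none in replicates 1 and 2 alone.

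Sqstm1, the autophagy receptor p62, stood at 428, 508, 464, 443 and 429 CPM with DMSO and 631, 700.5 and 760.3 CPM with torin 1, without overlap, and changed by 0.62 ± 0.08 (adjusted p = 0.000228). Atg14, Rb1cc1 and Gabarapl1, which act in the formation of the autophagosome, changed by 1.03, 0.83 and 0.78. Atg16l1, which helps to lipidate LC3, was the gene that fell (−0.86, adjusted p = 0.00272). Of 39 lysosome and proton pump genes 3 rose, against 3.48% of all genes. These were Sqstm1, Gla (0.48) and Atp6ap2 (0.45), and fewer than 3 were called without DMSO replicate 2, 3, 4 or 5 or torin 1 replicate 4 or 6, as few as 1, and 1 without DMSO replicates 4 and 5 together.

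Among 20 cyclins, CDKs and inhibitors of the G1 phase 6 fell and 2 rose, where 4.52% of all genes fell and 3.48% rose. Ccnd1 (cyclin D1) stood at 149, 140.2, 124, 110.5 and 118 CPM with DMSO and 82.5, 91.6 and 106 CPM with torin 1, without overlap, and changed by −0.48 ± 0.11 (adjusted p = 0.0145). Ccnd3 and Ccne1, the cyclins D3 and E1, changed by −0.85 (adjusted p = 0.0013) and −1.13 (adjusted p = 0.000563). Cdkn1b, the CDK inhibitor p27, and Mxd4, a repressor in the Myc network, rose (0.86, adjusted p = 0.00982 and 1.06, adjusted p = 0.042). Neither was called without the libraries labelled DMSO replicates 4 and 5, and 1 was called without DMSO replicate 2, 4 or 5 or torin 1 replicate 2, 4, 5 or 6. None of 30 mitotic and checkpoint genes was called (median 0.16). Of the epithelial markers the transcription factor Sox9 rose (1.01, adjusted p = 0.00314) and keratin 18 (Krt18) fell (−0.52, adjusted p = 0.00991), and of the mesenchymal markers Vim fell and Prrx1 rose (0.44, adjusted p = 0.0328). Of the actin genes Actg1 and Cnn2 fell (−0.65 and −0.51) and Flna rose (1.08). Prrx1 and Flna were not called without the libraries labelled DMSO replicates 4 and 5. The call of Prrx1 was also lost without DMSO replicate 4 or 5 or torin 1 replicate 2, 3 or 4 alone, and 1 actin gene in place of 2 was lower without DMSO replicate 1, 2 or 3 or torin 1 replicate 2, 3, 5 or 6.

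Other genes of growth control and metabolism did not pass the test. Myc changed by −0.37 (adjusted p = 0.0568), and its groups overlapped, from 1394 to 1848 CPM with DMSO and from 1061 to 1469 CPM with torin 1. Hmgcs1, a sterol-regulated gene, changed by −0.35 (adjusted p = 0.0552). Txnip, a thioredoxin-binding growth brake, changed by 0.91 (adjusted p = 0.0582), and the immediate early gene Egr1 by −0.15 (adjusted p = 0.804). None of 13 U34 tRNA modification enzymes was called (median −0.08), and Ctu2 and Elp3, the partner of Ctu1 and the catalytic subunit of Elongator, changed by −0.16 (adjusted p = 0.614) and −0.08 (adjusted p = 0.816).

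**Figure D3:**
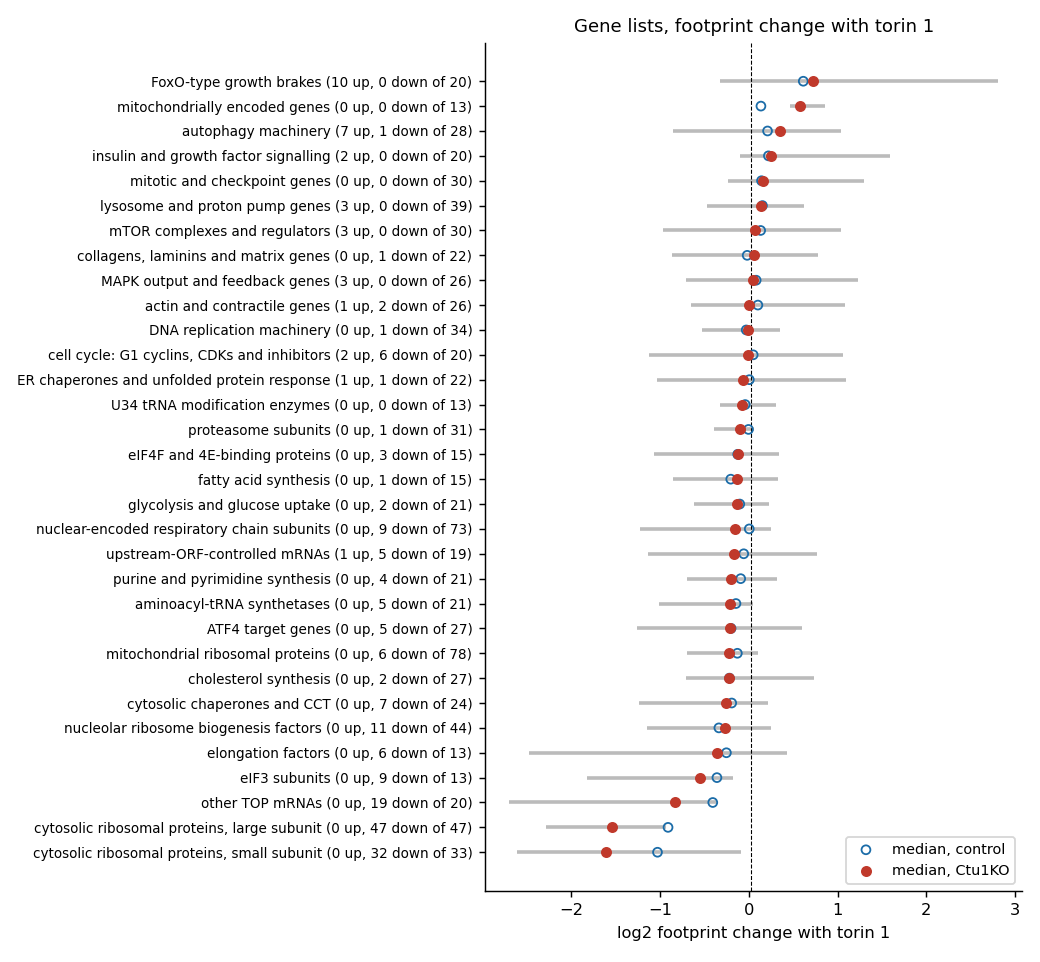
Log2 footprint change with torin 1 (horizontal axis) by gene list (vertical axis, with the number of genes called up and down of those tested). Filled points give the median in Ctu1-deficient cells, open points the median in control cells, grey bars run from the lowest to the highest gene, and the dashed line is the median of all genes at 0.02. The 2 lists of ribosomal proteins lie at −1.55 and −1.61, and FoxO-type growth brakes lie at 0.72.

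Transcripts were compared in replicates 1 to 3, where 794 of 9619 genes changed (8.25%, with 435 lower, or 4.52%, and 359 higher, or 3.73%). With all Ctu1KO RNA-seq libraries, including those that score against their labels, edgeR called 0 genes (466 at an unadjusted p under 0.05), and in replicates 1 to 3 the count was 123 without DMSO replicate 1 and 125 without DMSO replicate 2, 243 without torin 1 replicate 2, 311 without DMSO replicate 3, and 459 without torin 1 replicate 1, so the transcript count depends on single libraries. Of genes whose footprints fell, 433 were tested for transcripts. Their median footprint change was −0.72 and their median transcript change 0.02, with 81 transcripts lower and 12 higher. Of genes whose footprints rose, 342 were tested. Here the median footprint change was 0.76 and the median transcript change 0.50, with 147 transcripts higher and none lower.

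Among ribosomal proteins 1 of 80 transcripts rose and none fell (median 0.16). Eef2 and Eef1a1 transcripts rose, by 0.52 (adjusted p = 0.0143) and 0.41 (adjusted p = 0.0352), while their footprints fell. Vim was higher in transcripts, by 0.75 (adjusted p = 0.00758), and lower in footprints. With all RNA-seq libraries the transcript changes of Eef2 and Eef1a1 were 0.16 and 0.18 (edgeR, adjusted p = 0.974 for each). Vim was not called with all RNA-seq libraries either. Of the FoxO-type growth brakes 9 of 20 transcripts rose (median 0.68), against 3.73% of all transcripts, including Ccng2 with 2.91 (adjusted p = 0.00072) and Klhl24 with 2.25 (adjusted p = 0.000363). With all RNA-seq libraries these values were 0.85 (adjusted p = 0.974) and 0.74 (adjusted p = 0.969), so the transcript rise rests on the libraries kept. The largest transcript increases among called genes were those of Ccng2, Crebrf, Klhl24, Tcim and Pnrc1 (2.01), and the largest decreases those of Trib3 (−1.77), Ddit4 (−1.43), Aen (−1.41), Ndufaf4 (−1.38) and Alyref2 (−1.38). Atf4 transcripts fell by 0.78 on the log2 scale (adjusted p = 0.00481), as did those of Rrs1 by 1.02 and Ccne1 by 1.04.

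**Figure D4:**
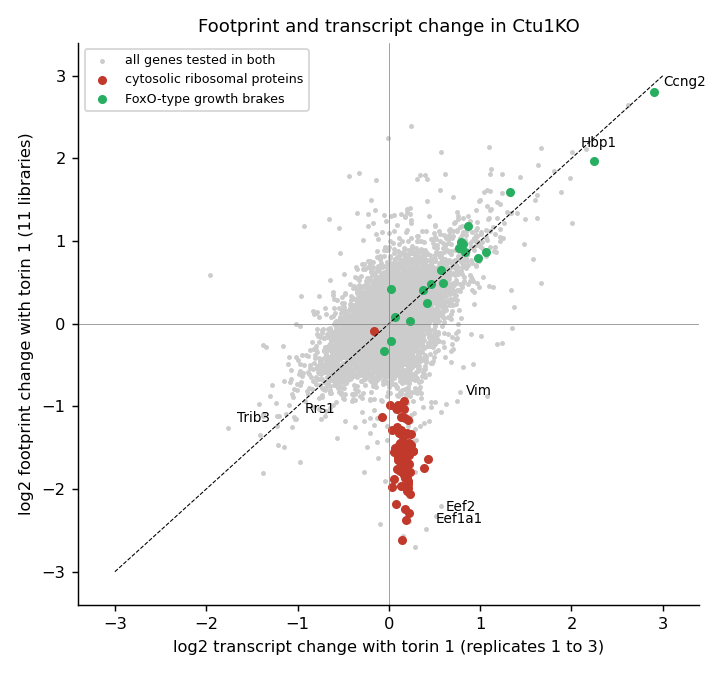
Log2 footprint change with torin 1 in 11 libraries (vertical axis) against log2 transcript change in replicates 1 to 3 (horizontal axis) in Ctu1-deficient cells, with 1 point per gene and a dashed line of equal change. Ribosomal proteins lie near 0 on the transcript axis (median 0.16) and low on the footprint axis (median −1.58), and FoxO-type growth brakes have medians of 0.68 and 0.72.

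Translational efficiency, the footprint change beyond the transcript change, was tested as an interaction in replicates 1 to 3 and differed for 170 of 9615 genes (1.77%). It fell for 161 genes (1.67%) and rose for 9 (0.0936%), and with library totals the counts were 124 and 29. Of the 161 genes, 78 were ribosomal proteins, and the median over the 80 ribosomal proteins was −1.79, against 0.03 over all genes. The lowest values were those of Pabpc1 with −3.19 (adjusted p = 9.6e-07), Eef2 with −2.94 (adjusted p = 9.6e-07), Eef1a1 with −2.89 (adjusted p = 8.42e-08), Rps27 with −2.79 (adjusted p = 3.62e-06) and Rps18 with −2.65 (adjusted p = 3.72e-06). Of other TOP mRNAs 13 of 20 fell (median −1.06) and of elongation factors 5 of 13 (median −0.39).

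None of the 20 FoxO-type growth brakes was called for efficiency (median −0.02), and the value of Ccng2 was 0.04 (adjusted p = 0.993). These values rest on the libraries kept. With all libraries, including the RNA-seq libraries that score against their labels, Ccng2 stood at 1.96 (adjusted p = 0.208), Crebrf at 1.93 in place of 0.37, and Klhl24 at 1.23 in place of −0.38, and none of these 3 was called. The 5 largest rises with at least 100 counts were those of Mob2 (1.26), Cep295 (1.24), Tgds (1.21), Slc25a51 (1.13) and Ibtk (1.08), and each of these calls was lost without at least 3 of the 6 single replicates. The number of genes that fell was 104 without DMSO replicate 1 and 107 without DMSO replicate 2, of which at least 70 were ribosomal proteins, and the numbers that rose were 1 and 2, with 5 without DMSO replicate 3 and 3 without torin 1 replicate 2.

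Torin 1 lowered the footprints of 38 of 80 ribosomal proteins more in Ctu1-deficient than in control cells. In control cells 714 of 9856 genes changed (7.24%, with 427 lower and 287 higher, or 2.91%). The difference between the torin 1 effects, tested as an interaction over all 23 footprint libraries, was called for 63 of 9857 genes (0.639%), all with a lower value in Ctu1-deficient cells, from −1.36 to −0.44. At an unadjusted p under 0.05, 294 genes were lower and 166 higher. DESeq2 called 100 lower and 7 higher, and without the libraries labelled DMSO replicates 4 and 5 edgeR called 60 lower and 4 higher. With the replicate number as a block, edgeR called 133 lower and 6 higher, and 73 ribosomal proteins were lower. All 63 had also fallen in Ctu1-deficient cells and 60 had fallen in control cells. Of the 63, 38 were ribosomal proteins, 10 were copies or predicted genes (AC124742.1, Gm2174, Gm45713, Gm5148, Rpl10-ps3, Rpl36a-ps1, Rps18-ps5, Rps18-ps6, Rps23rg1 and Rps27rt) and 15 were others. Estimates were negative for 80 of 80 ribosomal proteins, with a median of −0.64, against 4745 of 9855 genes and a median of 0.01.

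Eef1a1 had the lowest p of the difference, with log2 changes of −2.48 in Ctu1-deficient and −1.26 in control cells and a difference of −1.22 ± 0.09 (adjusted p = 1.07e-08). For Rps12 the changes were −2.18 and −1.0, with a difference of −1.17 ± 0.19 (adjusted p = 0.000973). Rps27 and Rps2 differed by −1.01 ± 0.14 (adjusted p = 0.000246) and −1.01 ± 0.18 (adjusted p = 0.00326). Khdrbs2, an RNA-binding protein gene with DMSO levels of 8.70, 14.6, 11.4, 12.4 and 15.9 CPM and torin 1 levels of 2.44, 4.10 and 5.37 CPM, had the largest difference, −1.36 ± 0.28 (adjusted p = 0.0156), and lost it without the libraries labelled DMSO replicates 4 and 5. Rps18, Rpl27a, Rps19, Eef1b2 and Eif3f differed by −1.0, −0.94, −0.78, −0.85 and −0.57. Eef2, Tpt1, Eif3h, Hspa8, Actg1 and Rps3 were also called, but each of these calls was lost without at least 1 single library, Actg1 without DMSO replicate 1, Eef2 without DMSO replicate 3, and the others without 5 or more libraries each. Pabpc1, with −2.70 and −1.97, differed by −0.72 ± 0.20 (adjusted p = 0.126), and Rpl29 by −0.60 ± 0.23 (adjusted p = 0.762).

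Among genes that rose with torin 1, none was called for a difference between the genotypes. Ccng2 changed by 2.81 in Ctu1-deficient and 2.76 in control cells, a difference of 0.06 ± 0.32 (adjusted p = 1), and Crebrf by 2.64 and 2.58, a difference of 0.07 ± 0.36 (adjusted p = 1). Of the FoxO-type growth brakes 11 of 20 rose in control cells (median 0.61), against 2.91% of all genes, with a median difference of 0.07 between the genotypes. In replicates 1 and 2 alone, chosen after the data were seen, Eef1a1 was the 1 gene called, with a median difference of −0.68 over ribosomal proteins, and in replicates 3 to 6 alone 64 genes were called (63 lower and 1 higher) with a median of −0.60. Estimates were negative for 80 of 80 ribosomal proteins in either subset, and the number called was 0 and 37.

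**Figure D5:**
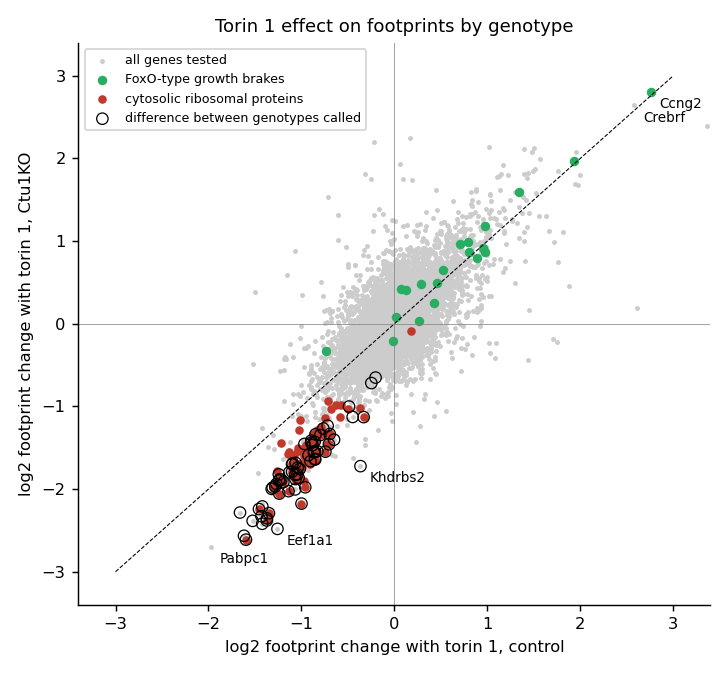
Log2 footprint change with torin 1 in Ctu1-deficient cells (vertical axis) against that in control cells (horizontal axis), with 1 point per gene, a dashed line of equal change, and open circles around the 63 genes whose difference was called. Ribosomal proteins lie below the line (medians of −1.58 and −0.96), and FoxO-type growth brakes lie near it (medians of 0.72 and 0.61).

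Codon content was compared because the study asks whether mTORC1 acts on codons read by U34-modified tRNAs. In each library the slope of log2(CPM + 1) on the percentage of a codon was fitted over 9605 genes with a coding sequence, and libraries were compared. For AAA the mean slope was 0.0736 ± 0.0417 (SD, n = 5) log2 units per percentage point with DMSO and 0.0604 ± 0.0385 (SD, n = 6) with torin 1, or −0.0131 between the groups (exact permutation test, two-sided, p = 0.602). For CAA the slopes were −0.109 ± 0.0647 and −0.0807 ± 0.0504, a difference of 0.0285 (exact permutation p = 0.429). GAA slopes were 0.0666 ± 0.0354 and 0.0695 ± 0.0329, and those of the 3 codons together were 0.0270 ± 0.0222 and 0.0264 ± 0.0200, with exact permutation p = 0.909 and p = 0.931. Each adjusted p over the 4 tests was 0.931. These tests compare whole groups and take no account of libraries that vary together across the groups, so a p that misses the threshold does not show that the slopes were alike.

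With the GC content of the coding sequence as a second term, the CAA slope was −0.274 with DMSO and −0.244 with torin 1, a difference of 0.0303 (exact permutation p = 0.00433, the smallest this design allows, adjusted p = 0.0173). Without ribosomal protein genes the same difference was 0.0182 (exact permutation p = 0.00866, adjusted p = 0.0346), in a fit chosen after the data were seen. The AAA difference in the fit with GC content was −0.0347 (exact permutation p = 0.026, adjusted p = 0.0519). Ribosomal proteins have short coding sequences that are poor in CAA and rich in AAA. Their medians were 151 codons, 0.462% CAA, 3.41% AAA and 1.46% GAA, against 468 codons, 1.04% CAA, 2.19% AAA and 2.78% GAA over all genes. Genes whose footprints fell had medians of 298 codons, 0.858% CAA and 2.57% AAA (436 genes, ribosomal proteins included). Those that rose had 567 codons, 1.17% CAA and 2.19% AAA (341 genes). In control cells slopes were fitted without the GC term only. They changed by −0.00756 for AAA, 0.0200 for CAA and 0.00378 for GAA, with exact permutation p from 0.515 to 0.825. The like value for CAA in Ctu1-deficient cells is the difference of 0.0285 without that term.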

How the data were processed

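Footprint libraries were made from lysates with cycloheximide that were digested with RNase I, and monosomes were isolated on sucrose gradients. According to the methods and the submitters' processing notes, the authors trimmed reads with cutadapt 3.4, extracted molecular identifiers with UMI-tools 1.1.1 (whether duplicates were collapsed is not given in the sources used here), removed rRNA reads and aligned with STAR 2.5.3a. The notes name GRCm38 (mm10), while the methods name a human build, and the gene symbols are those of mouse. The values are raw read counts per gene as deposited by the authors, for footprints and poly(A) RNA-seq, with no normalization. All RNA-seq counts were even. In each footprint table the lowest maximum count of an entry was 100, so no entry with all counts under 100 was listed. Per the labels there were 5 and 6 replicates, which the study's legends call independent experiments, while its methods name a smaller number of independent replicates, taken on consecutive days. P-values therefore measure the spread between these libraries, and whether each is a separate culture was not settled. No pair of libraries in a group agreed within sampling noise (variance at least 21.7 times the counting noise).

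After dropping genes that averaged under 10 counts, edgeR 4.0.16 (R 4.3.3) was run with TMM factors and its quasi-likelihood test. P-values were adjusted by Benjamini-Hochberg over every gene in the fit, and a gene was called under 0.05. Translational efficiency was the interaction of assay and treatment with TMM within each assay, and the difference between genotypes was the interaction of genotype and treatment. DESeq2 1.42.0, library totals, other filters, a replicate term, subsets of replicates and leaving out each library were alternatives. Slopes used a pseudocount of 1 and coding sequences of GENCODE M21, 1 per gene, which 97.5% of the genes had, with exact permutation tests in scipy 1.17.1 (Python 3.11.15, numpy 2.4.6, pandas 2.3.3, matplotlib 3.10.9). The steps were tested on simulated data. Totals were 4602092 to 34565506 footprint counts per library. Spread between libraries was at least 21.7 times the counting noise in variance, and intervals from counts would cover counting error only.

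The members, gene lists and the rule for named genes were chosen with earlier results of these data known. Named were the 15 strongest decreases and 15 strongest increases among called genes that averaged 100 counts or more and whose ranges do not overlap, the 4 called genes with the largest change in each list (or the 2 with the highest count where fewer than 2 were called), the 5 largest in each direction for efficiency, transcripts and the difference, and in any case Eef1a1, Eef2, Tpt1, Pabpc1, Rpl29, Rps25, Rps3, Atf4, Myc, Ccnd1, Eif4ebp1, Sqstm1, Hmgcs1, Irs2, Ccng2, Txnip, Egr1, Ctu2 and Elp3. The text describes those that carry a result, and some named genes are not reported here. Rps27l, and single called members of a list that this rule leaves out, were added after their values were seen.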

Additional observations from a re-analysis of the deposited data

Results flagged for a closer look

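Dixon's test was run on 220 groups of values, mostly footprint levels of named genes, with codon slopes, footprint totals and ribosomal protein means. In 10 of them a library stood apart from the rest of its group, and chance gives about 1 in 20. With DMSO these were Eef1g (437 CPM) and Akt2 (68.7 CPM) in replicate 1 and Gabarapl1 (71.3 CPM) in replicate 2. With torin 1 they were Eif3k (247 CPM), Qars (398 CPM), Ndufb10 (37.8 CPM), Ralgds (100.5 CPM) and Akt2 (172 CPM) in replicate 1, and Eef1b2 (341 CPM) and Krt18 (111 CPM) in replicate 2.

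The torin 1 effect differed between Ctu1-deficient and control cells, by the test of the interaction (edgeR), for 19 named genes, all with a lower value in Ctu1-deficient cells. Among ribosomal proteins the log2 differences were −1.17 for Rps12, −1.01 for Rps27, −1.01 for Rps2, −1.0 for Rps18, −0.94 for Rpl27a, −0.78 for Rps19, −0.67 for Rpl13a, −0.66 for Rpl17, −0.56 for Rps25 and −0.51 for Rps3. Among translation factors and TOP mRNAs they were −1.22 for Eef1a1, −0.89 for Eef2, −0.85 for Eef1b2, −0.62 for Tpt1, −0.57 for Eif3f and −0.50 for Eif3h. Others were Khdrbs2 (−1.36), Hspa8 (−0.51) and Actg1 (−0.44).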

How the results depend on the processing

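The 788 genes called in footprints became 1368 with a term for replicates 1 and 2, 1187 with all 23 footprint libraries in 1 fit, 444 without the libraries labelled DMSO replicates 4 and 5, 144 (13 higher) in replicates 1 and 2 alone, 1155 with DESeq2, and 527 to 921 without single libraries. The cause of these shifts was not tested. With library totals 897 were called, of which 660 were shared, and RLE factors and other filters gave 786 to 791. Of 93 genes named for footprints and called, 93 kept their call with DESeq2, 92 with library totals, 82 without DMSO replicates 4 and 5, 90 in replicates 3 to 6 and 34 in replicates 1 and 2 alone. Estimates changed sign for Rps27l (0.00713 with library totals, 0.00923 without DMSO replicates 4 and 5), Elp3 (0.0133 with library totals), Egr1 (0.144 in replicates 1 and 2, and −0.384 to 0.0116 without single libraries), Alyref2 (0.0107 in replicates 3 to 6) and the Cebpd transcript (−0.00993 with all RNA-seq libraries), and none of these was called there. The 63 differences between genotypes became 107 with DESeq2, 1 in replicates 1 and 2 alone and 49 to 64 without single libraries. Translational efficiency (170) gave 257 with all libraries and 314 with DESeq2. It gave 105 to 163 without 1 footprint library and the RNA-seq library of the same label. Library totals moved its median over genes from 0.03 to 0.20. Transcripts (794) gave 0 with all RNA-seq libraries, 1609 with DESeq2 and 123 to 1123 without single libraries. The CAA slope difference passed with a GC term (0.0303), also without ribosomal proteins (0.0182). The GAA difference turned negative without ribosomal proteins (−0.00279), with the GC term (−0.00021), with both (−0.00886) and in same-numbered pairs (−0.00259). Without single libraries the differences ranged from −0.0231 to 0.00213 for AAA, from 0.013 to 0.0517 for CAA, from −0.00585 to 0.016 for GAA and from −0.00595 to 0.00752 for the 3 codons together, and that of log2 totals from −0.90 to −0.47.

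Same-numbered libraries correlated by 0.46, 0.49, 0.25, −0.03 and 0.36 in their deviations from group means, 2 of 5 DMSO libraries (1 and 2) correlated best with their own number, and DMSO replicates 3, 4 and 5 correlated best with torin 1 replicates 4, 5 and 6 (r = 0.44, 0.59 and 0.54), so the numbers were not taken as pairs. With a replicate block, 983 genes were called in footprints, 139 for the difference (73 ribosomal proteins), 248 for efficiency and 3378 for transcripts, and log2 totals differed by −0.90 (exact sign-flip p = 0.0625, the smallest possible).

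Torin 1 replicate 1 had the lowest total of the footprint libraries of Ctu1-deficient cells (4602092 counts), and variance between replicates was at least 21.7 times the counting noise. Rnf149 took 3.57% of the counts of torin 1 replicate 2.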
